A study of Mus musculus with 8 samples.

Results

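Metallothioneins 1 and 2, their zinc-sensing activator Mtf1 and the zinc transporters Slc39a14, Slc30a1 and Slc30a10 were followed in mouse liver with and without rilpivirine. A gene was taken from the probe sets of the array whose annotation lists its symbol alone. On that rule 4 of the 6 genes were measured (Mt1, Mt2, Mtf1 and Slc39a14), among 22180 genes in all, and all 4 passed the filter on low values. Each had 1 such probe set. Slc30a1 and Slc30a10 are listed only together with another gene, so no value is given to either. The 6 genes were chosen by their role in zinc handling with the log2 differences between rilpivirine and control in these samples already known, so those differences are given below as a description, without a test.

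The 8 liver samples came from wild-type C57BL/6 mice, 4 from a rilpivirine group and 4 from a control group, each numbered 1 to 4. Rilpivirine is an antiretroviral drug that blocks HIV reverse transcriptase outside its active site; it was given daily by mouth at a dose described only as matching human use. All 8 samples, controls included, are labelled as non-alcoholic fatty liver disease. The protocol names feeding for 3 months on a normal diet or on one with 60% fat, without tying a diet to a sample, and the sources used here do not give age, sex or vehicle. The design compares the drug with the control. No label states 1 mouse per sample, so the errors cover only the spread among these samples, and that spread may be technical.

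Metallothioneins are small, cysteine-rich proteins of the cytosol that bind zinc, copper and cadmium and buffer free zinc. In liver the genes Mt1 and Mt2 are induced by zinc through MTF1, a zinc finger transcription factor that binds metal response elements, and also by glucocorticoids and by interleukin 6. Zinc enters the cytosol through transporters of the SLC39 (ZIP) family and leaves it through those of the SLC30 (ZnT) family. SLC39A14 is the zinc importer that hepatocytes raise in the acute phase response, and it also carries manganese and iron; SLC30A1 exports zinc at the plasma membrane and SLC30A10 exports manganese.

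Windows of 300 bases are shown for Mt1 and Mt2 because both transcripts were lower with rilpivirine and varied alike among samples. Each window, from RefSeq on GRCm38.p6, holds 250 bases before and 50 bases after the start site that the promoter table uses, on the plus strand; for Mt1 and Slc30a1 that site is not the gene's first annotated base. Capitals mark matches to the core of the metal response element, searched on both strands as TGCACNC and TGCGCNC, where N is any base.
Mt1, chr8:94178839-94179138: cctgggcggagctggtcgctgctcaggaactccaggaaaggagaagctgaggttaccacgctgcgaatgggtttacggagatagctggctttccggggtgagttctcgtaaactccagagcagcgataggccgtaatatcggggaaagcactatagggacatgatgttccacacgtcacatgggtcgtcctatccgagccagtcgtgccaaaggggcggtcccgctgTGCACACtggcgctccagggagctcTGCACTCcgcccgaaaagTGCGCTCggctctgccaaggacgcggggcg
Mt2, chr8:94172368-94172667: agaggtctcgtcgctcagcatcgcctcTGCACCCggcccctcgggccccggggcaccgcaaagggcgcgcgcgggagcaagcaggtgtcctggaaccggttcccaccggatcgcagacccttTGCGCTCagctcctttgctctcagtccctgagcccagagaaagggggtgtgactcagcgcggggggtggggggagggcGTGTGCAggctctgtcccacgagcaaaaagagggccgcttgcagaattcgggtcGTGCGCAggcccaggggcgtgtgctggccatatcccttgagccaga
The Mt1 window held 3 matches and the Mt2 window 4, none overlapping another. Of 32851 promoter windows of 300 bases, 25.7% held at least 1 match, 1.31% held 3 or more and 0.295% held 4 or more, with overlapping matches counted once. The windows of Slc30a1 and Slc30a10 held 2 each, counted in the same way, and 6.14% of windows held 2 or more. The Mtf1 window held 0, and for Slc39a14 no window was used. These windows were richer in G and C than most, at 60.7% for Mt1, 67.7% for Mt2 and 66.3% for Mtf1, against a median of 52.7% over all windows. A match is a description of the letters and not a measured binding site. Bases beyond the windows were not searched, so the counts and shares hold for these 300 bases and not for a whole promoter.

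**Figure D1:**
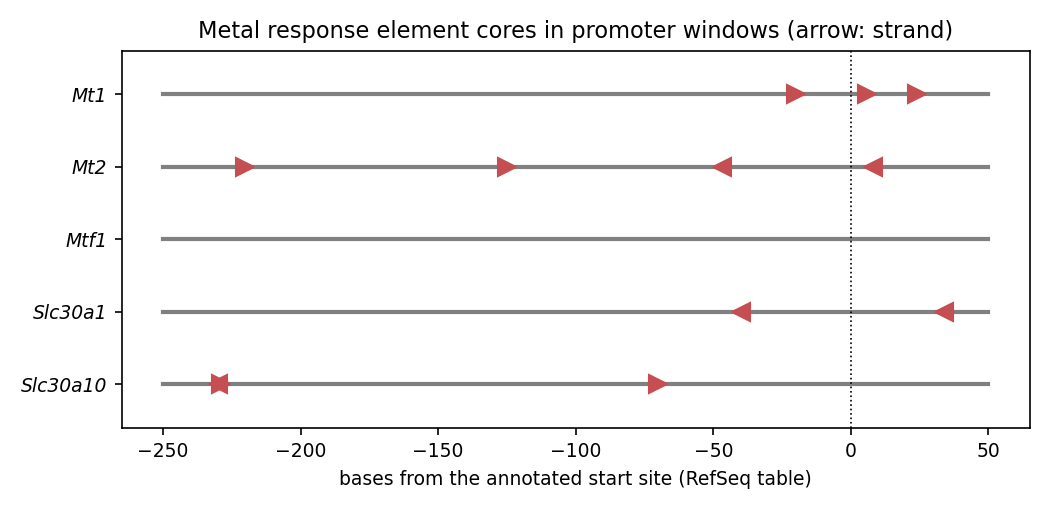
Matches to the metal response element core in the promoter windows of 5 genes. The x axis is the distance in bases from the start site of the RefSeq table, grey lines are the windows and arrows point along the strand of each match; Mt1 has 3 matches, Mt2 has 4 and Mtf1 has 0, and the 2 arrows at the left of Slc30a10 overlap.

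Mt2 had the lowest log2 difference of all 16635 genes tested. With rilpivirine its level was 7.14, 8.62, 9.76 and 8.78 log2 in replicates 1 to 4, and in controls it was 10.76, 9.11, 11.26 and 11.17 log2. Control replicates 1, 3 and 4 lay above every rilpivirine sample, while control replicate 2 lay below rilpivirine replicate 3, so the groups overlapped. The group means were 8.57 ± 1.08 log2 (SD, n = 4) with rilpivirine and 10.58 ± 1.0 log2 (SD, n = 4) in controls. The difference was -2.0 ± 0.56 log2 (SE), a 4.0-fold lower level with a 95% interval of 1.71-fold to 9.37-fold.

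Mt1, its neighbour in the genome, was lower by a smaller step. Its level with rilpivirine was 7.60, 9.0, 9.28 and 8.12 log2 in replicates 1 to 4. In controls it was 9.72, 8.82, 9.98 and 9.89 log2. The same control replicate 2 was the low one, below rilpivirine replicates 2 and 3, and the groups overlapped. The means were 8.5 ± 0.78 and 9.60 ± 0.53 log2 (SD, n = 4 each), and the difference of -1.10 ± 0.36 log2 (SE) is a 2.15-fold lower level, with a 95% interval of 1.23-fold to 3.74-fold. Mt1 ranked 11th from the lowest among the 16635 differences.

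Mtf1 differed by less than its spread between samples. It measured 5.71, 5.42, 5.76 and 5.83 log2 in rilpivirine replicates 1 to 4 and 5.60, 5.89, 5.84 and 5.71 log2 in the controls. The groups overlapped, and rilpivirine replicate 2 was the lowest of the 8 samples. The difference was -0.08 ± 0.13 log2 (SE), with a 95% interval of -0.36 to 0.20, and it turned to 0.01 without rilpivirine replicate 2.

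Slc39a14, the importer, had a small difference with little spread. Its level was 7.87, 7.64, 7.88 and 7.74 log2 with rilpivirine and 7.91, 8.03, 8.19 and 7.97 log2 in controls. Every rilpivirine sample was below every control, though rilpivirine replicate 3 lay just under control replicate 1. Among all genes tested, 1.73% had rilpivirine samples that were all lower than the controls, and 1.30% had them all higher. The difference was -0.24 ± 0.12 log2 (SE), a 1.18-fold lower level, and its 95% interval of -0.50 to 0.01 includes 0.

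**Figure D2:**
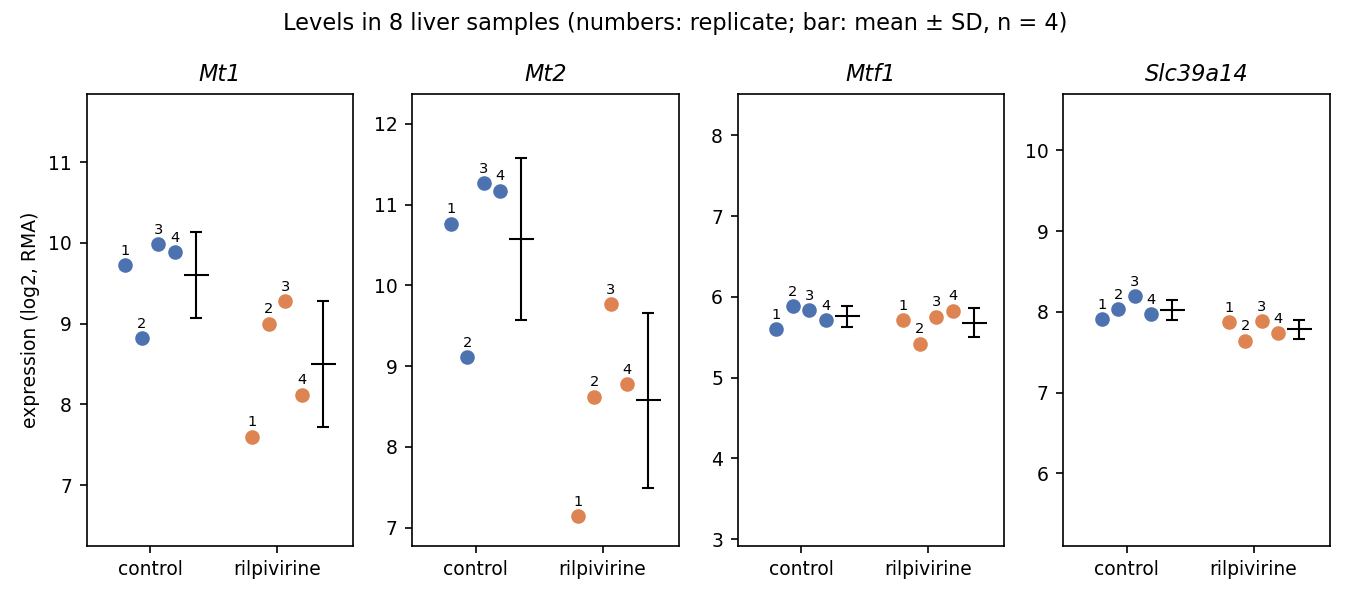
Levels of Mt1, Mt2, Mtf1 and Slc39a14 in each sample (log2, RMA). The panels span the same number of log2 units, points are samples numbered by replicate, and bars are the mean ± SD (n = 4); Mt1 and Mt2 spread widely in both groups, with control replicate 2 low in both, while Mtf1 and Slc39a14 vary little.

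Over the whole table limma called 0% of 16635 genes past a Benjamini-Hochberg adjusted p of 0.05. At an unadjusted p under 0.05 it gave 867 genes, 5.21% of them, and per-gene statistics with unequal variances gave 653, with 0 after adjustment.

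Mt1 and Mt2 were among the most variable transcripts within each group. The genes were chosen with their differences known. With 4 samples per group, variable genes reach large differences more readily, so this spread is not independent of that choice. The SD of Mt2 among the controls was larger than that of 99.9% of genes tested, and among the rilpivirine samples larger than that of 99.8%. For Mt1 the share was 98.8% in both groups. Mt2 spanned 2.15 log2 in controls and 2.63 log2 with rilpivirine, each wider than the difference between the group means. The SDs of Mtf1 were larger than those of 34.8% of genes with rilpivirine and 33.6% in controls, and for Slc39a14 these shares were 13.8% and 29.6%.

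Within the groups the 2 metallothioneins varied together. After each group's mean was removed, Mt1 and Mt2 had a Pearson r of 0.90 over 8 samples (exact permutation within groups, two-sided, p = 0.0122, adjusted p = 0.0729 over 6 pairs of genes). Spearman's rho was 0.71 (exact permutation, p = 0.0781, adjusted p = 0.458). Neither passed 0.05 after adjustment. Without rilpivirine replicates 1 and 4, the samples farthest from the median of Mt1, r was 0.97. Of the genes tested other than Mt1, 0.174%, Mt2 among them, had an r with Mt1 at least as high as that of Mt2. The samples share their arrays' quality and normalization. Mt1 and Mt2 are similar in sequence, and probe sequences were not used here, so whether their probe sets also catch the other transcript was not tested.

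The other 5 pairs had weaker relations. Mtf1 and Slc39a14 had an r of 0.68 (exact permutation, p = 0.0885, adjusted p = 0.266) and a rho of 0.62 (exact permutation, p = 0.153, adjusted p = 0.458), with an r of 0.57 without rilpivirine replicate 2 and control replicate 2. Mt1 and Mtf1 had an r of -0.42 (exact permutation, adjusted p = 0.812) and Mt2 and Mtf1 one of -0.14 (exact permutation, adjusted p = 0.925). For Slc39a14 the r was -0.06 with Mt1 and 0.03 with Mt2 (exact permutation, adjusted p = 0.925 for both).

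**Figure D3:**
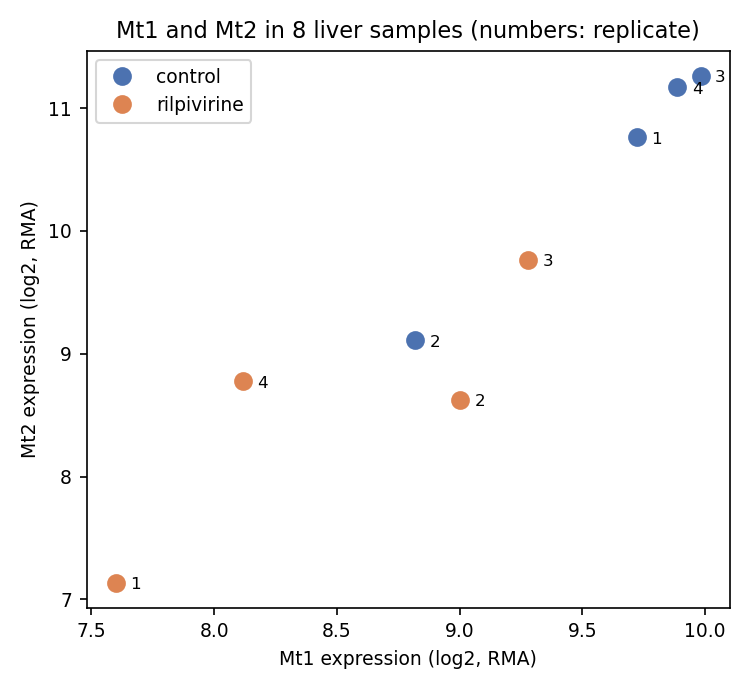
Mt2 against Mt1 in the 8 samples, both in log2 (RMA), numbered by replicate. The samples rise from rilpivirine replicate 1, lowest in both genes, to control replicate 3, highest in both, and control replicate 2 lies among the rilpivirine samples.

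The difference was larger for Mt2 than for Mt1. Mt2 minus Mt1 within a sample was -0.46, -0.38, 0.49 and 0.66 log2 in rilpivirine replicates 1 to 4. In controls it was 1.04, 0.29, 1.28 and 1.28 log2. Its group means were 0.08 ± 0.58 and 0.97 ± 0.47 log2 (SD, n = 4 each), a difference of -0.90 ± 0.37 log2 (SE). Control replicate 2 again lay within the range of the rilpivirine samples.

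The genes beside the pair had small differences in both directions. In the gene order of RefSeq (GRCm38.p6), Mt4, Mt3, Mt2 and Mt1 follow one another, between Bbs2 and Nup93. Mt3, known mainly from brain, had a difference of 0.11 ± 0.15 log2 (SE) and Mt4, known from stratified epithelia, one of -0.05 ± 0.14 log2 (SE), both dim here at 2.88 to 3.72 log2 in the group means. Of the 8 nearest protein-coding genes tested, 5 were higher and 3 lower, from -0.38 (Herpud1, of the endoplasmic reticulum stress response) to 0.23 (Nup93, of the nuclear pore), with a median of 0.02. None of the 8 passed limma's unadjusted p of 0.05, the value that 5.21% of all genes passed. Nudt21, Ogfod1, Bbs2 and Slc12a3 were the others.

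The remaining importers showed no common direction. Of 13 other SLC39 genes tested, 8 were lower and 5 higher with rilpivirine, where 56.9% of all genes were lower, and the median difference was -0.08 log2 against -0.03 over all genes. None passed limma's adjusted p of 0.05 and none its unadjusted one. Slc39a12 differed by -0.23 ± 0.11 log2 (SE), but was dim, at 2.81 log2 with rilpivirine and 3.04 in controls. It was the 1 gene of the 13 whose groups did not overlap. Of all genes tested, 1.73% had all rilpivirine samples lower and 1.30% all higher. Slc39a13, which carries zinc out of vesicles of the secretory pathway, differed by -0.24 ± 0.12 log2 (SE). Slc39a8, the closest relative of Slc39a14 and likewise a carrier of manganese, differed the other way by 0.19 ± 0.14 log2 (SE).

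For the exporters of the SLC30 family most differences were below 0 and none passed the test. Of 7 tested, 6 were lower and 1 higher, where 56.9% of all genes were lower. The median difference was -0.11 log2 against -0.03 over all genes, and 0 passed limma's adjusted or unadjusted p of 0.05. Slc30a5, which loads zinc into the secretory pathway, measured 6.80 ± 0.36 log2 (SD, n = 4) with rilpivirine and 7.18 ± 0.26 log2 (SD, n = 4) in controls, a difference of -0.37 ± 0.19 (SE). Slc30a9 differed by -0.35 ± 0.24 and Slc30a4 by -0.29 ± 0.29 log2 (SE). Slc30a8, the transporter of insulin granules, was under the filter at 1.83 to 2.05 log2. Without rilpivirine replicates 1 and 2 together, 4 of the 7 were lower.

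**Figure D4:**
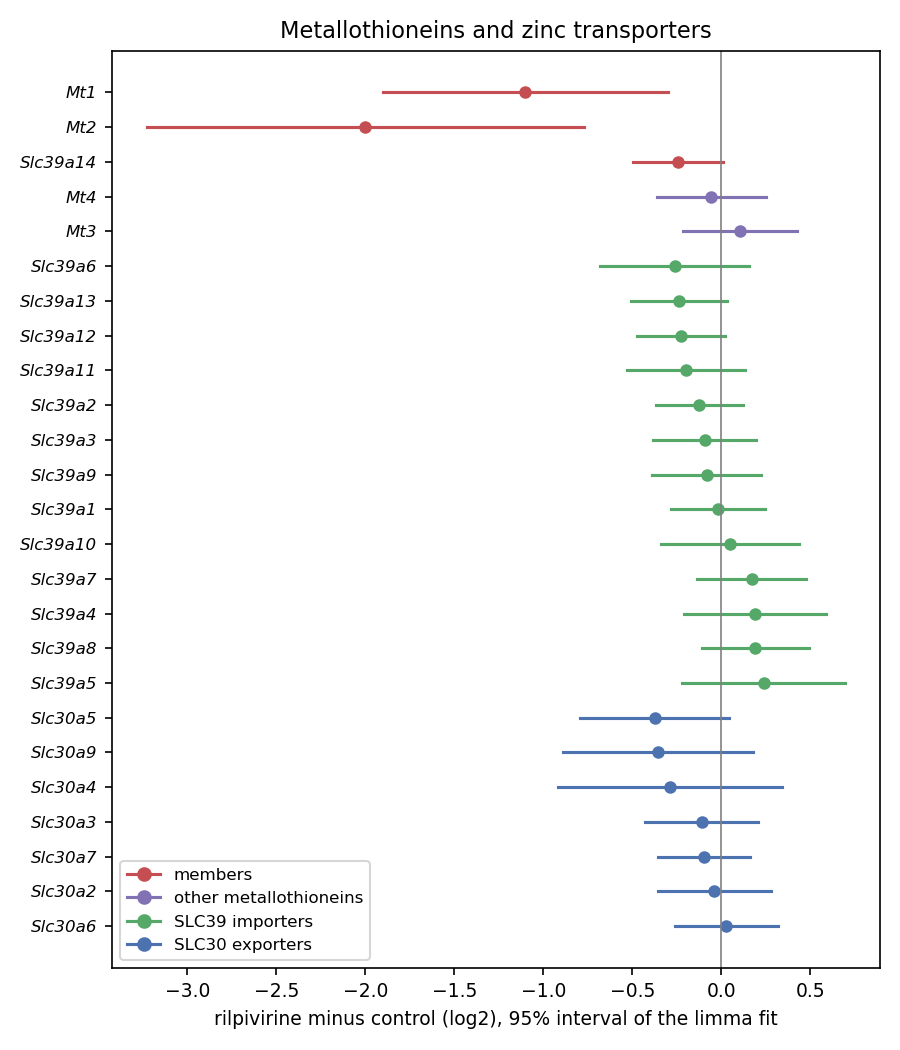
Log2 differences, rilpivirine minus control, of the metallothioneins and of the transporters of both zinc families, with 95% intervals from the limma fit of all genes (n = 4 per group). Mt1 and Mt2 have the lowest differences drawn, at -1.10 and -2.0. They were chosen with these differences known, so their intervals are a description and not a test.

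Other genes linked to MTF1 had differences in both directions. Ndrg1, a stress-responsive gene, was higher by 0.33 ± 0.14 log2 (SE), the only one of the 5 past limma's unadjusted p of 0.05, where 5.21% of all genes were past it; without rilpivirine replicate 4, control replicate 1 or control replicate 4 the count was 0, and without rilpivirine replicate 1 or 2 it was 2. Selenow, a selenoprotein, differed by -0.37 ± 0.18 log2 (SE) and Gclc, the catalytic subunit of glutathione synthesis, by 0.33 ± 0.25 log2 (SE). Of the 5, 3 were higher and 2 lower, and 0 passed the adjusted threshold. The list does not sort its genes by whether MTF1 raises or lowers them, so their directions were not read as a shared response. Of 15 zinc-dependent enzymes of liver tested, 10 were lower and 5 higher (median difference -0.04 log2), where 56.9% of all genes were lower. Alpl, the zinc-dependent alkaline phosphatase, differed by -0.51 ± 0.17 log2 (SE) and was the 1 past limma's unadjusted p, while Car3 and Adh5 differed by 0.20 ± 0.18 and -0.18 ± 0.20 log2 (SE). Without rilpivirine replicate 2 the count of lower enzymes was 6.

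Copper and manganese genes were described as other metals that these proteins carry. Of 13 copper genes tested, 6 lay below and 7 above the control mean (median difference 0.0023 log2). Cox17, a copper chaperone of mitochondria, differed by -0.40 ± 0.16 log2 (SE). It was the 1 copper gene past limma's unadjusted p of 0.05, where 5.21% of all genes were past it. That count was 0 without rilpivirine replicate 2 or control replicate 1 or 4, 2 without rilpivirine replicate 1 and 3 without rilpivirine replicate 4. Slc31a1, the copper importer, differed by -0.28 ± 0.13 log2 (SE), with all rilpivirine samples lower, as in 1.73% of all genes tested. Steap4, a metalloreductase, differed by -0.37 ± 0.20 log2 (SE). Without rilpivirine replicate 3 the count of lower copper genes was 10. Of 8 manganese genes, 6 were lower and 2 higher, where 56.9% of all genes were lower. The median difference of the manganese list, -0.16 log2, became -0.0027 without rilpivirine replicates 1 and 2 together. Its members with the smallest p, the urea cycle enzyme Arg1, the endoplasmic reticulum ATPase Atp13a1 and the mitochondrial Sod2, differed by -0.32 ± 0.16, -0.23 ± 0.12 and -0.26 ± 0.16 log2 (SE). None of either list passed the adjusted threshold.

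Genes of metal and oxidative stress, which cadmium or excess zinc raise along with metallothioneins, had differences on both sides of 0. Of 10 tested, 5 were lower and 5 higher (median difference 0.03 log2), and 0 passed limma's adjusted or unadjusted p of 0.05. Sqstm1, an autophagy receptor, Gclc and Srxn1, which repairs peroxiredoxins, were higher by 0.42 ± 0.19, 0.33 ± 0.25 and 0.28 ± 0.25 log2 (SE). Rilpivirine replicate 4 lay highest, 0.55 log2 above the mean of 8 arrays for the list, and without it 8 of the 10 were lower.

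Genes of the other inducers of metallothioneins had mostly negative differences, none past the adjusted threshold. Of 24 acute phase genes responsive to interleukin 6 and STAT3, 23 were lower and 1 higher (median difference -0.31 log2). Over all genes 56.9% were lower. Of the 24, 10 passed limma's unadjusted p of 0.05, all lower, where 3.21% of all genes did so. Lcn2, Lrg1 and Orm3, secreted by hepatocytes, differed by -1.16 ± 0.20, -0.66 ± 0.11 and -1.19 ± 0.33 log2 (SE). The list mean was -0.36 to -0.10 log2 in the rilpivirine samples and -0.05 to 0.45 log2 in controls. Leaving out control replicate 1 lowered the count of 10 to 6, as did leaving out the pair of rilpivirine replicates 1 and 2. These genes were known from earlier results of these samples to be lower.

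The glucocorticoid list had 15 genes tested, mostly genes that glucocorticoids induce, with the receptor gene Nr3c1 (-0.06 ± 0.17 log2, SE) among them. Of the 15, 13 were lower and 2 higher (median difference -0.20 log2), and 2 passed the unadjusted p, both lower. Over all genes 56.9% were lower, and 3.21% were lower and past that p. With each sample left out in turn the count of 2 ran from 0 to 6: it was 0 without rilpivirine replicate 2 or 4 and without control replicate 1, 3 or 4, 4 without rilpivirine replicate 3 and 6 without control replicate 2, and it was 0 with small nucleolar RNA level as a covariate. Pck1, the rate-limiting enzyme of gluconeogenesis, differed by -0.62 ± 0.24 log2 (SE), Per1, of the circadian clock, by -0.55 ± 0.22 and the transcription factor Zbtb16 by -0.84 ± 0.49. None of either list passed the adjusted threshold. The list mean did not separate the groups: it was -0.04, -0.57, 0.34 and -0.35 log2 in rilpivirine replicates 1 to 4 and 0.40, -0.54, 0.58 and 0.17 log2 in the controls. Rilpivirine replicate 1, the lowest of the 8 samples in Mt1 and Mt2, was the second highest of its group here. Control replicate 2 was the lowest control and rilpivirine replicate 3 the highest of its group, as in Mt1 and Mt2. Other lists shared this: of the 19 lists examined, control replicate 2 was the lowest control in 9 and rilpivirine replicate 3 the highest of its group in 6, and both held in 4, the acute phase, glucocorticoid, hepatocyte and Kupffer cell lists. In any list 1 of the 4 controls must be lowest and 1 of the 4 rilpivirine samples highest. Some genes are in more than 1 list, the erythroid list had only 1 gene tested, and these counts were not tested. The median was -0.55 log2 without control replicate 2, and 9 of the 15 were lower without rilpivirine replicate 2.

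**Figure D5:**
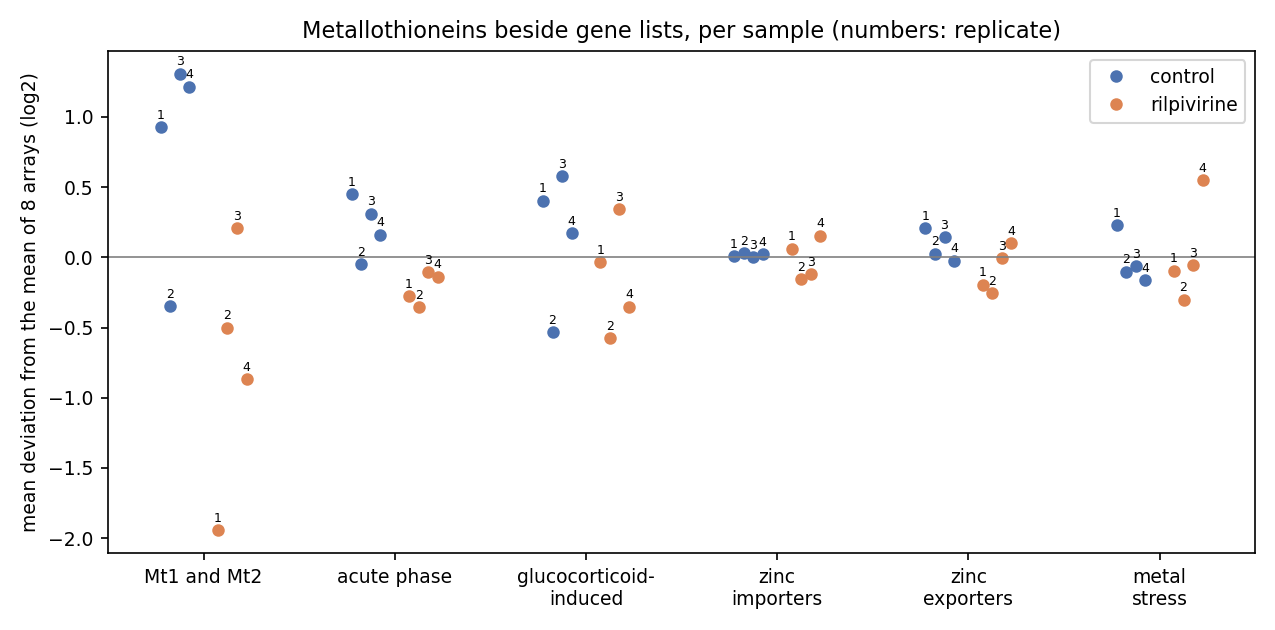
Mean deviation of Mt1 and Mt2 and of 5 gene lists from the mean of 8 arrays (log2) in each sample, numbered by replicate. Control replicate 2 is the lowest control for Mt1 and Mt2, as it is in 9 of the 19 lists examined, and the zinc transporter lists stay within 0.26 log2 of 0.

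The genes whose levels followed the mean of Mt1 and Mt2 most closely were ranked by Pearson r over the 8 samples, group means kept, among 14713 named genes. Cyp2a5, a coumarin-metabolising cytochrome P450, had the highest r, 0.99 (0.99 after group means were removed). Its probe set was dim, at 3.15 to 4.04 log2 with rilpivirine and 3.62 to 4.49 log2 in controls, and Cyp2a5 has a near-identical copy in Cyp2a4, so the gene behind the signal is uncertain. Patz1, a zinc finger transcription factor, Slc41a3, of a family of magnesium transporters, and Pla2g7, which inactivates platelet-activating factor, had r of 0.98, 0.98 and 0.96 (0.97, 0.96 and 0.92 without group means). Bmp4, a ligand of the BMP pathway, and Zhx3, a zinc finger and homeobox protein, followed with 0.95 and 0.95 (0.91 and 0.88 without group means). On the opposite side were Cyth3, Atat1, Oasl1 and Nlrp2, with r of -0.97, -0.96, -0.96 and -0.95 (-0.93, -0.92, -0.92 and -0.93 without group means). Patz1 and Nlrp2 were as dim as Cyp2a5 or dimmer, at 3.36 to 3.77 and 2.43 to 3.22 log2 over the 8 samples. They were picked as extremes, with 30 genes at 0.9 or above and 24 at -0.9 or below, and are a description of 8 points that share 2 group means.

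Array quality and cell markers were set beside the metallothioneins. Array medians were 3.33 to 3.45 log2, and rilpivirine replicate 2 stood apart, with a mean correlation of 0.965 to the other arrays over all probe sets against 0.976 to 0.981 for the rest. Without it the differences were -1.27 log2 for Mt1, -2.02 for Mt2 and -0.19 for Slc39a14. The mean level of small nucleolar RNAs was 0.49 log2 over the 8-array mean in that sample, 0.26 in rilpivirine replicate 1 and 0.27 in control replicate 2, which had 3 of the 4 lowest levels of Mt2. With their level as a covariate the differences were -0.99 log2 for Mt1 and -1.55 for Mt2. Without rilpivirine replicates 1 and 2 together, Mt2 differed by -1.30 log2 and Mt1 by -0.90.

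Hepatocyte markers, which define the labelled tissue, were bright: Alb, which encodes albumin, was at 13.22 to 13.37 log2 in the 8 samples, and of 10 markers 5 lay above and 5 below the control mean (median difference -0.04 log2), with a list mean of -0.11 to 0.08 with rilpivirine and -0.02 to 0.11 in controls. The hepatocyte genes with the smallest p were Tdo2, Serpina1a and Cyp2e1, at -0.40 ± 0.26, -0.22 ± 0.16 and -0.09 ± 0.10 log2 (SE). In bulk liver, fewer cells of a type and less RNA per cell cannot be told apart. Kupffer cell markers were lower in 9 of 10 (median -0.17 log2) and sinusoidal endothelial markers higher in 9 of 10 (0.25), led by C1qb, C1qa and C1qc at -0.50 ± 0.14, -0.33 ± 0.11 and -0.22 ± 0.14 log2, and Kdr, Oit3 and Stab2 at 0.43 ± 0.17, 0.40 ± 0.17 and 0.40 ± 0.17 log2 (SE). The other Kupffer genes included Marco, Folr2 and Adgre1 at -0.47 ± 0.32, -0.23 ± 0.20 and -0.12 ± 0.14 log2 (SE). Differences were small for Clec4f, Timd4, Vsig4 and Cd5l, at -0.13 ± 0.18, -0.04 ± 0.24, -0.01 ± 0.25 and 0.04 ± 0.14 log2 (SE). Of the 10 Kupffer genes 2 passed limma's unadjusted p of 0.05, both lower, and of the 10 endothelial genes 3 passed it, all higher, where 5.21% of all genes passed it in either direction and 56.9% were lower. With each sample left out in turn the Kupffer count ran from 2 to 4, the 4 without control replicate 2. The endothelial count ran from 0 to 5, being 0 without rilpivirine replicate 1 or 2 and without control replicate 1 or 4. With small nucleolar RNA level as a covariate the Kupffer count was 1 and the endothelial count 0. Their list means ranged from -0.33 to 0.13 and from -0.18 to 0.26 with rilpivirine, and from -0.11 to 0.28 and from -0.34 to 0.06 in controls; their part in the metallothionein difference was not tested. Of the other markers, 5 of 10 were lower for stellate cells, 2 of 5 for cholangiocytes, 2 of 6 for adipocytes, 3 of 4 for exocrine pancreas and 0 of 7 for skeletal muscle, with 0 past limma's unadjusted p of 0.05 in these 5 lists.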

How the data were processed

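Per the labels' protocols, RNA came from snap-frozen liver by Trizol extraction, and 300 ng of each sample entered a whole-transcript labelling kit. The deposited values are log2 expression of 41345 probe sets on 8 Affymetrix arrays, made by the authors with RMA; the submitters' processing notes also name limma, and no versions or build are given. RMA equalises the arrays, so a change in total mRNA is not visible. The number of arrays limits the precision.

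Probe sets with 1 symbol in the platform annotation (23521; 1814 had several and 16010 none) were used, the one with the highest mean per gene. A filter at the 25th percentile of gene means (2.72 log2) removed low genes, and 16635 of 22180 were tested, rilpivirine minus control, with limma 3.58.1 in R 4.3.3 (lmFit, eBayes, two-sided, Benjamini-Hochberg). The script was checked on simulated data. Lists were described by counts and medians, without a set test. The genes and lists were chosen with earlier results of these data known. Named genes were the 6 members, the 3 genes with the smallest p of each list described beyond counts and the genes most like Mt1 and Mt2. Other genes of the Mt locus, the remaining Kupffer cell genes, Nr3c1, Alb and Slc30a8 were named after their values were seen. Aga was taken off the zinc enzyme list because it needs no zinc. Alternatives were other moderation, weights, scaling, filters, probe set rules, a replicate block, a small nucleolar RNA covariate and samples left out. Figures used matplotlib 3.10.9 in Python 3.11.15.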

Additional observations from a re-analysis of the deposited data

Results flagged for a closer look

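Probe sets that list 2 genes were outside the comparison. Of the 4 that list Slc30a10 or Slc30a1, 2 had rilpivirine levels that all lay above the controls, and only such rows were flagged. Among all genes tested, from probe sets with 1 symbol, 1.30% had all rilpivirine samples higher and 1.73% all lower. The brighter probe set that lists Slc30a1 was lower with rilpivirine, by -0.63 log2. Their levels belong to neither gene by name. A probe set that lists Slc30a10 together with Gm2061, a predicted gene that overlaps it in the annotation, measured 5.49 ± 0.34 log2 (SD, n = 4) with rilpivirine and 4.57 ± 0.16 log2 (SD, n = 4) in controls, a difference of 0.92 ± 0.19 log2 (SE) without overlap of the groups. A probe set that lists 1700034H15Rik together with Slc30a1 measured 3.13 ± 0.03 and 2.90 ± 0.15 log2 (SD, n = 4 each), a difference of 0.23 ± 0.08 log2 (SE) at a dim level, also without overlap.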

How the results depend on the processing

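Other moderation, filters and probe set rules and the replicate block could not change the differences of the 4 genes, and returned the same values. Under the alternatives that could change them, Mt1 and Mt2 stayed lower with rilpivirine. With each sample left out in turn, Mt1 lay between -1.36 and -0.80 log2 and Mt2 between -2.49 and -1.52. Without rilpivirine replicates 1 and 2 together, Mt1 lay at -0.90 and Mt2 at -1.30. The genes were chosen with these differences known, so this is a description. Slc39a14 lay between -0.28 and -0.19 with each sample left out, and at -0.17 after a further quantile normalization. Mtf1 changed sign to 0.035 without rilpivirine replicates 1 and 2 together, and lay between -0.13 and 0.0090 with each sample left out. Each setting called 0 genes after adjustment; at an unadjusted p under 0.05 the count of 867 ran from 578 without control replicate 1 to 1524 without rilpivirine replicate 4. The correlation of Mt1 and Mt2 within groups lay between 0.83 and 0.97 with each sample left out. Same-numbered samples had correlations of -0.25, 0.46, -0.09 and 0.07, and 1 of the 4 rilpivirine samples correlated best with its own number. The numbers are therefore not taken as pairs. The replicate block, which cannot change a difference in this balanced design, gave 1071 genes at limma's unadjusted p under 0.05 and 0 after adjustment. Control replicate 2 and rilpivirine replicate 3 carry the overlap of the groups in Mt2.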

Other observations

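The other probe sets with the same pairs of symbols had other differences. The second one that lists Gm2061 and Slc30a10 measured 3.75 ± 0.18 log2 with rilpivirine and 3.43 ± 0.20 log2 in controls, a difference of 0.32 ± 0.14 (SE). The second one that lists Slc30a1 and 1700034H15Rik measured 6.04 ± 0.46 log2 with rilpivirine and 6.67 ± 0.23 log2 in controls, a difference of -0.63 ± 0.26 (SE), in which the groups overlapped. A probe set that lists Mtf1 with 1110065P20Rik measured 5.39 ± 0.23 and 5.63 ± 0.17 log2, a difference of -0.24 ± 0.14 (SE), against -0.08 in the probe set that lists Mtf1 alone. SDs are over 4 samples of each group, and the 2 genes of each pair cannot be told apart from these rows.

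Control replicate 2 was the lowest control in Mt1, in Mt2 and in the mean of 9 of the 19 lists. These were the acute phase, glucocorticoid, MTF1-linked, copper, manganese, hepatocyte, Kupffer cell, adipocyte and erythroid lists. The erythroid list had 1 gene tested of 6 listed, so its mean is that of 1 gene. In Mtf1 control replicate 2 was the highest control, at 5.89 log2. Over all probe sets the correlation of control replicate 2 to the others averaged 0.980, within the range of 0.976 to 0.981 of the 7 arrays other than rilpivirine replicate 2.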
